A study of Homo sapiens with 9 samples.

Results

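The 7 genes described here, CCND1, ORAOV1 (listed under its current symbol, LTO1), ANO1, FADD, PPFIA1, CTTN and SHANK2, are neighbours on chromosome band 11q13, and they were taken by name from a count table of 58929 genes. RNA-seq was performed in FaDu cells, an established line from a hypopharyngeal squamous cell carcinoma (HNSCC), with wild-type genotype in the labels. Cells received DMSO as vehicle or 1 of 2 compounds, samuraciclib or YKL-5-124, both at 250 nM, with 3 libraries in each of the 3 groups. Both compounds are selective inhibitors of CDK7, the kinase that activates cell cycle CDKs and phosphorylates RNA polymerase II. The treatment lasted 48 h by the sample labels and the study's text, and 72 h by the series design. All groups are 1 cell line in culture, so the values describe that line, and DNA copy number was not among the measurements analysed here.

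Amplification of 11q13 is one of the recurrent copy number gains of head and neck carcinoma, and it usually takes in CCND1 together with a run of neighbouring genes. The members differ in function. CCND1 encodes cyclin D1, which activates CDK4 and CDK6 and so drives phosphorylation of the retinoblastoma protein. ORAOV1 acts with YAE1 in the maturation of the iron-sulfur protein ABCE1. ANO1 is a calcium-activated chloride channel, and FADD is the adaptor that links death receptors to caspase-8. PPFIA1 is the scaffold liprin-alpha-1, CTTN is cortactin, which promotes branched actin assembly through the ARP2/3 complex, and SHANK2 is a scaffold protein best known from synapses.

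In the count table (GRCh38) CCND1 lay at chr11:69641087-69654474 on the plus strand and LTO1 at chr11:69653076-69675416 on the minus strand. ANO1 followed at chr11:70078302-70189528, FADD at chr11:70203163-70207390, PPFIA1 at chr11:70270700-70385312 and CTTN at chr11:70398404-70436584, all on the plus strand. SHANK2 closed the run at chr11:70467856-71252577 on the minus strand. The spans of CCND1 and LTO1 overlapped by 1399 bases on opposite strands, 10.4% of CCND1 and 6.26% of LTO1. The strand setting of the counting is not given in the sources used here, so reads from that overlap, and from the antisense genes inside PPFIA1, may not be assigned to 1 gene with certainty.

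The start regions of ANO1 and FADD are shown because these genes are next to each other and had different values after treatment. RefSeq (GRCh38.p14) gave a promoter sequence for 4 of the 7 members, LTO1, ANO1, FADD and PPFIA1. The lines hold the 250 bases before the RefSeq start of each gene, 5′ to 3′ on the plus strand, at chr11:69985657-69985906 for ANO1 and chr11:70203046-70203295 for FADD. Capitals mark the GC box, GGGCGG on either strand.
ANO1: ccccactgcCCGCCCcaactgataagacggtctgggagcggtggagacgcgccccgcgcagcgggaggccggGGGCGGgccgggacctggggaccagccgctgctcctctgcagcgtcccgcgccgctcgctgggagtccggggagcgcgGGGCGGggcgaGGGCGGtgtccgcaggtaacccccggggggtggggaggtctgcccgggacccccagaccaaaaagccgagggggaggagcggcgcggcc
FADD: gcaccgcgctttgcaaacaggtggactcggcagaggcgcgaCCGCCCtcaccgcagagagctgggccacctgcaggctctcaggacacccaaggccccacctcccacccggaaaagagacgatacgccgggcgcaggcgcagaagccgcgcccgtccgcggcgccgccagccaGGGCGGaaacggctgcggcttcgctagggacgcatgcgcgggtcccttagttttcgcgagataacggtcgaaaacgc
The ANO1 window held 4 GC boxes in 78.0% GC and the FADD window 2 in 68.8% GC, while LTO1 had 2 and PPFIA1 had 5. None of these 4 windows held TATAAA or CACGTG, searched on both strands. Of all 35116 RefSeq windows of this length, 42.6% held a GC box, 10.7% TATAAA and 6.34% CACGTG. The RefSeq start of ANO1 lies 92.4 kb upstream of the start that the count table gives for the gene, so the window belongs to a longer gene model than the one counted. For FADD the distance between both starts was 0.133 kb.

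Library totals ran from 18096180 to 28018126 counts, and all 7 members passed the low-count filter with at least 642 counts in each library. All 8 markers of the squamous epithelium list, which includes the general epithelial genes CDH1 and EPCAM, were detected in each group. Their summed CPM (counts after scaling by TMM library size) lay between 5453 and 5776 in the vehicle group. It was 6286 to 6592 in the samuraciclib group and 5657 to 6088 in the YKL-5-124 group. KRT5 and KRT17 made up most of this sum. The markers did not all differ in the same direction between the groups: KRT5, a basal keratin, was at 2519 to 2694 CPM for vehicle and 1763 to 1927 under YKL-5-124, KRT17 at 1744 to 1804 and 2625 to 2817, and CDH1, which encodes E-cadherin, at 183 to 199 and 371 to 385. Other squamous markers were low: over all libraries KRT14 was at 17.0 to 35.9 CPM and KRT6A at 2.55 to 12.2 CPM. Of the fibroblast markers LUM had 0 counts in all libraries, COL1A2 and DCN were at no more than 0.0520 CPM and COL1A1 was at 3.73 to 5.96 CPM. The summed leukocyte markers were at 2.31 to 4.09 CPM, of which CD14 made up 2.21 to 4.04. The endothelial gene CDH5 was present at 18.7 to 31.0 CPM, with PECAM1 at no more than 0.206 CPM. The summed level of the 3 endothelial markers lay between 30.0 and 32.1 CPM for vehicle, 20.0 and 23.8 for samuraciclib and 25.5 and 28.4 for YKL-5-124, and its part in the results was not tested. The 7SL RNA gene RN7SL2 was low in DMSO 3, samuraciclib 2 and YKL-5-124 2, 24.9 to 59.3 CPM against 696 to 981 in the other libraries. Leaving out these 3 libraries changed no call of a member.

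In DMSO the members spanned a wide range of levels. Per kb of gene model, CTTN was highest at 686 ± 15.2 CPM per kb (SD, n = 3), followed by CCND1 at 308 ± 9.85 and PPFIA1 at 129 ± 1.98. FADD came next at 66.3 ± 4.47 CPM per kb, then LTO1 at 31.4 ± 0.224, ANO1 at 16.2 ± 0.689 and SHANK2 at 6.78 ± 0.0509. No 2 neighbours in this order overlapped in their libraries, and the order was the same in the samuraciclib and YKL-5-124 groups. The value of SHANK2 is per kb of a gene model of 18775 bases, the longest of the 7.

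The cyclin and the cytoskeletal scaffold genes stood near the top of the transcriptome. Among 12874 tested protein-coding genes ranked by DMSO CPM per kb, CTTN was at rank 31, CCND1 at 88, PPFIA1 at 280 and FADD at 622. LTO1 ranked 1561, ANO1 2995 and SHANK2 5591, the last with 56.6% of the genes below it. By CPM without a length correction CTTN was at rank 5 of all 16065 genes tested. The median member had 66.3 CPM per kb, against 6.32 for the 36 protein-coding genes tested in the 2 Mb on either side, 6.02 for those of the rest of chromosome 11 and 5.08 for all 12874 protein-coding genes tested.

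**Figure D1:**
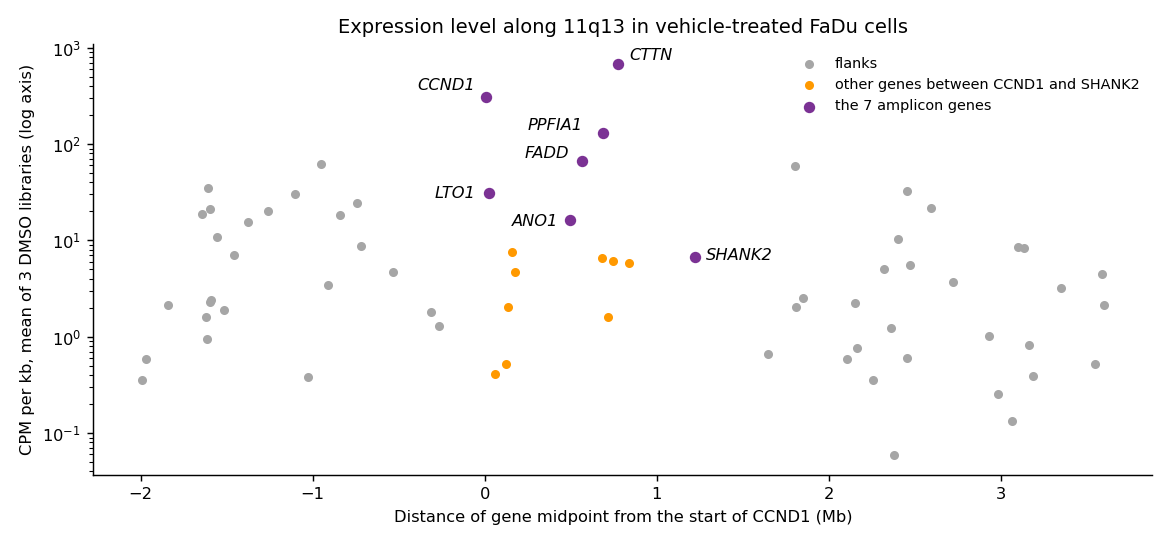
Mean CPM per kb of gene model in the 3 DMSO libraries (log axis) for each tested gene, against the distance of its midpoint from the start of CCND1 in Mb. Purple points are the 7 amplicon genes, orange points the other genes between CCND1 and SHANK2 and grey points the flanks. CTTN (686), CCND1 (308), PPFIA1 (129) and FADD (66.3) lie above all protein-coding flanking genes, the highest of which is at 62.2.

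The plot of levels along 11q13 showed that high expression was not shared by the whole interval. Between LTO1 and ANO1 lie FGF19, FGF4 and FGF3, fibroblast growth factor genes that are often co-amplified. FGF4 had 6.58 ± 0.823 CPM in DMSO, FGF3 5.65 ± 1.62 and FGF19 0.997 ± 0.186. Their median was 2.04 CPM per kb, below each of the 7 members. A predicted transcript without a gene name, chr11:69791647-69809967, was higher, at 139 CPM or 7.57 CPM per kb in DMSO. Per kb this was above SHANK2, at 6.78. Of the 32 other genes between CCND1 and SHANK2, 9 passed the filter, and the 23 that did not had at most 14 counts in any library. In the flanks GAL, which encodes the neuropeptide galanin, was the highest protein-coding gene at 62.2 CPM per kb. GAL was named after its values were seen.

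The members together took 0.793 to 0.809% of all counts in the vehicle libraries, which compares with 0.863 to 0.868% under samuraciclib and 0.891 to 0.901% under YKL-5-124, and the 3 ranges did not overlap. CTTN alone accounted for 0.448 to 0.463%, 0.528 to 0.540% and 0.548 to 0.565% in the same order. The summed share and that of CTTN were both higher in the inhibitor groups than in vehicle. Shares are of raw counts and leave out the TMM factors. These factors were 0.949 to 0.967 for vehicle libraries, 0.992 to 1.007 for samuraciclib and 1.039 to 1.054 for YKL-5-124. On the CPM scale, which includes them, mean CTTN was 4765 (vehicle), 5367 (samuraciclib) and 5317 (YKL-5-124). The higher CTTN share of YKL-5-124 over samuraciclib was thus absent in CPM. The summed share was not computed in CPM, so its order between the inhibitors is given for raw counts only. The shares were not tested.

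The first comparison asked which members changed with YKL-5-124. ANO1 fell 2.94-fold and SHANK2 fell 1.97-fold, and the other 5 members passed no call. A gene was called when its adjusted p in edgeR's quasi-likelihood test was under 0.05 and its log2 fold change was beyond 0.5. By this rule 2 of 7 members were called, both lower, and 21.8% of all tested genes were called, 11.9% higher and 9.93% lower. The median log2 fold change was -0.12 over the members and 0.01 over all genes.

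ANO1 was measured at 95.6, 102.5 and 95.1 CPM in DMSO and at 34.1, 34.2 and 31.2 CPM with YKL-5-124. Each treated library was far under the lowest vehicle library. The log2 fold change was -1.56 ± 0.062 (SE; 95% confidence interval -1.69 to -1.43; adjusted p = 1.37e-12). Ranked from the most negative log2 fold change, ANO1 was at position 12 of 8917 protein-coding genes with at least 10 CPM on average.

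SHANK2 had 126, 127 and 128 CPM in DMSO and 67.1, 62.8 and 64.4 CPM with YKL-5-124, with little spread in either group. Its log2 fold change was -0.98 ± 0.047 (95% confidence interval -1.07 to -0.88; adjusted p = 1.43e-11), at position 119 in the same ranking.

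CCND1 itself had 1439, 1494 and 1534 CPM in DMSO and 1439, 1491 and 1381 CPM with YKL-5-124. The groups overlapped, and the interval of the log2 fold change ran from -0.15 to 0.05 around -0.05 (adjusted p = 0.395). FADD, which lies between ANO1 and PPFIA1, had 124, 129 and 113 CPM in DMSO against 114, 109 and 131 CPM. Its log2 fold change was -0.05 with an interval of -0.23 to 0.13 (adjusted p = 0.666).

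The remaining 3 members had small differences whose adjusted p was under 0.05 but whose size was under the fold threshold. CTTN was 4730, 4682 and 4884 CPM in DMSO and 5269, 5283 and 5401 CPM with YKL-5-124, with a log2 fold change of 0.16 ± 0.039 (adjusted p = 0.00232). LTO1 was 245, 248 and 249 CPM against 222, 220 and 225 CPM, a log2 fold change of -0.15 ± 0.044 (adjusted p = 0.00783). PPFIA1 was 1484, 1511 and 1530 CPM against 1402, 1386 and 1373 CPM, a log2 fold change of -0.12 ± 0.043 (adjusted p = 0.0252). These 3 differences were larger than the spread between replicates and amounted to between 1.09-fold and 1.12-fold, but scaling by library size alone, which moved the median log2 fold change of all genes to 0.14, gave 0.29 for CTTN, -0.024 for LTO1 and 0.0079, with the sign changed, for PPFIA1. Counted without the fold threshold, 5 of 7 members passed, against 49.3% of all genes. In 5 of 7 members the vehicle and YKL-5-124 libraries did not overlap, against 56.8% of all genes.

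**Figure D2:**
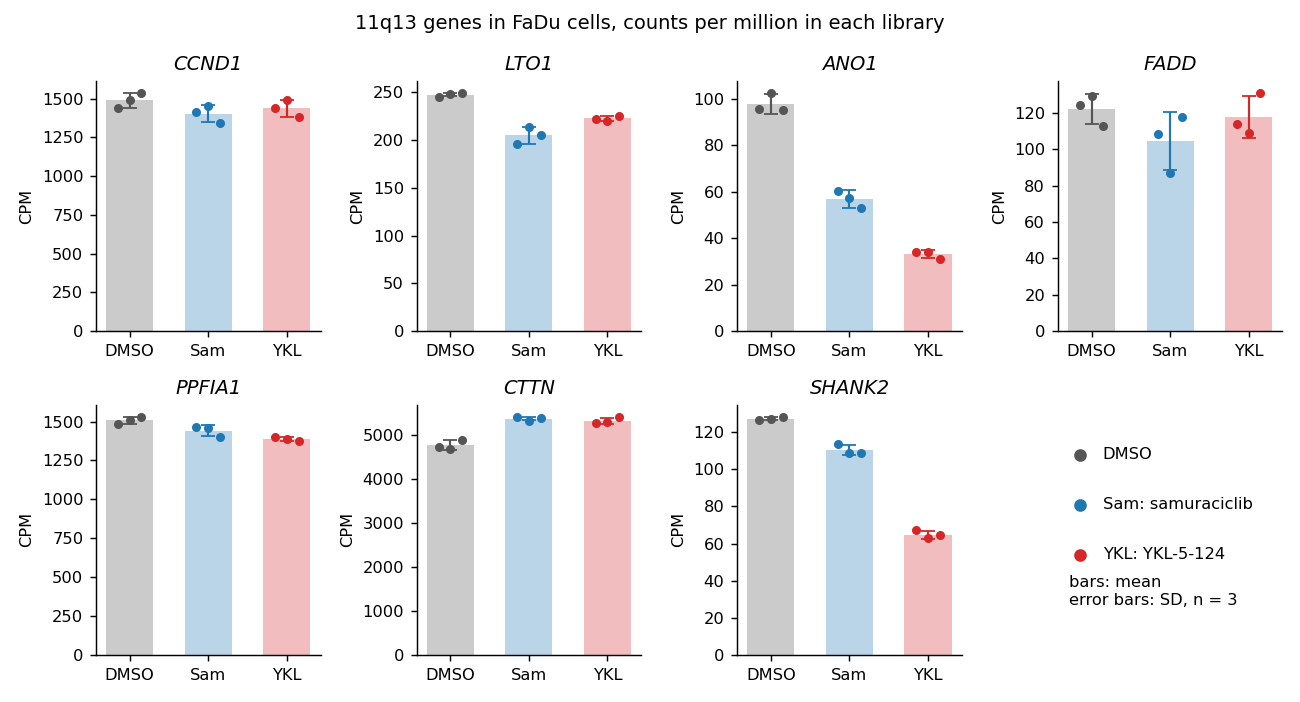
CPM of each of the 7 genes in each library, with points for libraries, bars for the group mean and error bars for the SD (n = 3), for DMSO (grey), samuraciclib (Sam, blue) and YKL-5-124 (YKL, red). ANO1 steps down from a mean of 97.7 CPM in DMSO to 56.8 with samuraciclib and 33.2 with YKL-5-124, and SHANK2 from 127 to 110 and 64.8, while the CCND1 groups overlap.

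The second comparison asked the same for samuraciclib, against the same DMSO libraries. Only ANO1 of the members was called, and it fell 1.72-fold. This was 1 of 7 members, while 17.7% of all tested genes were called, 8.17% higher and 9.55% lower. The median log2 fold change was -0.21 over the members and 0.00 over all genes.

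ANO1 stood at 60.3, 57.3 and 52.9 CPM with samuraciclib, all under the vehicle libraries. The log2 fold change was -0.78 ± 0.059 (95% confidence interval -0.90 to -0.66; adjusted p = 8.11e-09), at position 203 of 8917 from the most negative. SHANK2 was 113, 109 and 109 CPM, a log2 fold change of -0.21 ± 0.046 (95% confidence interval -0.30 to -0.11; adjusted p = 0.00115). Its groups did not overlap, but the size was under the fold threshold.

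LTO1 was 196, 213 and 205 CPM with samuraciclib, a log2 fold change of -0.27 ± 0.044 (adjusted p = 6.47e-05). CTTN was 5409, 5322 and 5371 CPM, a log2 fold change of 0.17 ± 0.039 (adjusted p = 0.00137). FADD, the most variable member, was 109, 87.0 and 118 CPM, a log2 fold change of -0.22 ± 0.088 (adjusted p = 0.0452) with overlapping groups. None of these 3 reached the fold threshold. The lowest FADD library, samuraciclib 2, was one of those low in RN7SL2, and the log2 fold change of FADD was -0.11 without it and -0.32 without samuraciclib 3. CCND1 was 1414, 1451 and 1345 CPM, with an interval of -0.19 to 0.02 for the log2 fold change (adjusted p = 0.158). PPFIA1 was 1464, 1457 and 1401 CPM, with an interval of -0.16 to 0.02 (adjusted p = 0.220). Without the fold threshold 5 of 7 members passed, against 44.1% of all genes, and in 5 of 7 the groups did not overlap, against 52.9%.

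**Figure D3:**
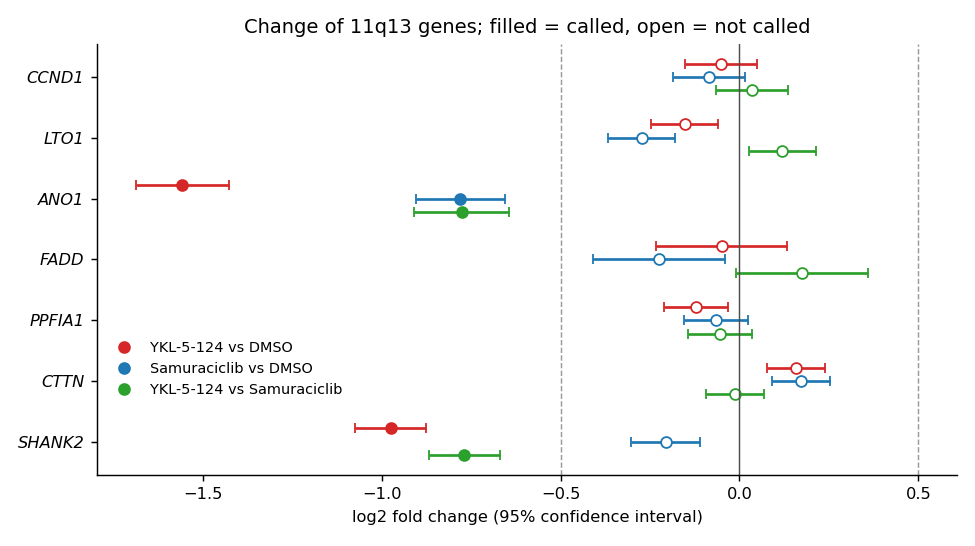
log2 fold change of each of the 7 genes with its 95% confidence interval for YKL-5-124 against DMSO (red), samuraciclib against DMSO (blue) and YKL-5-124 against samuraciclib (green); filled points were called and dashed lines mark the fold threshold of 0.5. ANO1 was called in all 3 comparisons and SHANK2 in both that involve YKL-5-124, while the other 5 genes lie within 0.5 of 0.

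The direct comparison of both inhibitors at 250 nM showed lower ANO1 and SHANK2 with YKL-5-124. ANO1 was 1.71-fold lower than with samuraciclib, a log2 difference of -0.78 ± 0.063 (95% confidence interval -0.91 to -0.64; adjusted p = 1.81e-07). SHANK2 was 1.70-fold lower, a log2 difference of -0.77 ± 0.047 (95% confidence interval -0.87 to -0.67; adjusted p = 8.29e-09). These were 2 of 7 members, against 6.92% of all genes called, 4.46% higher and 2.46% lower, and they took positions 22 and 24 of 8917 from the most negative. Libraries did not overlap for ANO1, SHANK2 and LTO1, against 38.7% of all genes.

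For the other members no difference between the compounds passed the call. The log2 difference was -0.01 for CTTN with an interval of -0.09 to 0.07 and 0.03 for CCND1 with -0.07 to 0.13. It was -0.05 for PPFIA1 with -0.14 to 0.04 and 0.18 for FADD with -0.01 to 0.36, the latter 0.058 without samuraciclib 2, 0.093 without YKL-5-124 3 and 0.27 without samuraciclib 3. LTO1 had 0.12 with an interval of 0.03 to 0.21 (adjusted p = 0.0554). The intervals of CTTN, CCND1, PPFIA1, LTO1 and FADD all lay inside the fold threshold of 0.5.

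Ratios within a library compare members without any scaling between libraries. ANO1 counts were 1.95 to 2.19% of CTTN counts in the vehicle libraries, 0.985 to 1.12% under samuraciclib and 0.578 to 0.648% under YKL-5-124. SHANK2 counts were 2.63 to 2.71% of CTTN counts, then 2.03 to 2.10% and 1.19 to 1.27%. Both ratios separated all 3 groups. CTTN, their denominator, itself had log2 fold changes of 0.17 with samuraciclib and 0.16 with YKL-5-124, which lowers both ratios in these groups. ANO1 counts relative to SHANK2 were 74.1 to 80.7% for vehicle, 48.6 to 53.2% for samuraciclib and 48.5 to 54.5% for YKL-5-124. The ratio of ANO1 to SHANK2 was thus lower than vehicle in each inhibitor group and overlapped between both. Against FADD, the next member along the chromosome, ANO1 was 79.4% in the middle vehicle library, 44.9 to 65.9% under samuraciclib and 23.8 to 31.4% under YKL-5-124, with no overlap between groups. PPFIA1 was 99.8 to 103% of CCND1 for vehicle, 100 to 104% for samuraciclib and 93.0 to 99.4% for YKL-5-124, whose libraries lay below those of both other groups by a small margin.

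Over the 9 libraries, log2 CPM of ANO1 had a Pearson r of 0.94 with SHANK2, 0.94 with PPFIA1 and -0.82 with CTTN. These libraries share the treatment groups, so r mostly follows the group means and is given as a description. The genes most like ANO1 among 8916 were PAPOLA, a poly(A) polymerase, and IPO5, a nuclear import receptor, each with r = 0.996. For SHANK2 they were NDST1, a heparan sulfate enzyme, at 0.993 and SFPQ, a splicing factor, at 0.990. CCND1 was nearest to SEC62 at 0.957 and TAF2 at 0.947, and FADD to NME3 at 0.969 and GADD45GIP1 at 0.962. LTO1 was nearest to GOLGA1 and IPO13 (0.988 each), PPFIA1 to EIF5A2 (0.985) and RABGAP1 (0.984), and CTTN to IGF1R (0.990) and CNN2 (0.989).

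Calls were also counted for the genes around the members, and whether position went with change was not tested. Some of the other interval genes overlap PPFIA1 or SHANK2. With YKL-5-124, 3 of the 9 other tested genes between CCND1 and SHANK2 were called, 1 higher and 2 lower, and 9 of 53 in the flanks, 8 higher and 1 lower. With samuraciclib the counts were 2 of 9, both higher, and 8 of 53, 4 in each direction. Between the inhibitors 2 of 9 were lower and 4 of 53 higher with YKL-5-124. The rest of chromosome 11 gave 22.1%, 17.8% and 7.37% called in the 3 comparisons.

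Within the interval AP002336.2, an antisense gene inside the span of PPFIA1, was at 2.94 to 4.42 CPM in the vehicle libraries, 5.35 to 5.74 under samuraciclib and 6.11 to 7.08 under YKL-5-124. It rose by a log2 fold change of 0.93 ± 0.15 with YKL-5-124 (edgeR adjusted p = 5.30e-05) and of 0.68 ± 0.15 with samuraciclib (adjusted p = 0.00156), while PPFIA1 on the other strand was not called. FGF4 rose with samuraciclib (0.60 ± 0.12, edgeR adjusted p = 0.000539), a call lost without the 3 libraries low in RN7SL2, and had a log2 fold change of 0.47 with YKL-5-124 that was not called. FGF19, with 4 to 27 counts per library, fell with YKL-5-124 (log2 fold change -1.38 ± 0.39, edgeR adjusted p = 0.00706). FGF3 was not called, with log2 fold changes of -0.47 and -0.16.

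A predicted transcript without a gene name between FGF19 and FGF4, chr11:69758122-69766358, was lower with YKL-5-124 than with DMSO (log2 fold change -0.87 ± 0.23) and than with samuraciclib (-0.90). AP001271.1, a gene inside a SHANK2 intron on the same strand, was lower with YKL-5-124 than with samuraciclib (-1.17 ± 0.30, 15 to 52 counts), and this call was lost without the libraries low in RN7SL2. Its 316 bases lie within SHANK2, so its reads may not be told apart from unspliced SHANK2 RNA. A second predicted transcript, chr11:69791647-69809967 between FGF4 and FGF3, at 2392 to 4140 counts the most abundant of the non-members in the interval, was not called, nor were the antisense genes AP000487.1 and AP000487.2.

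In the flanks CPT1A, the carnitine palmitoyltransferase of mitochondrial fatty acid import, fell in both comparisons with DMSO. Its level was 122 ± 2.28 CPM in DMSO, 81.8 ± 3.45 with samuraciclib and 71.5 ± 1.51 with YKL-5-124. The log2 fold change was -0.58 ± 0.048 with samuraciclib (edgeR adjusted p = 2.69e-08) and -0.77 ± 0.048 with YKL-5-124 (adjusted p = 3.93e-10). ALDH3B1, an aldehyde dehydrogenase, rose with YKL-5-124, by 0.66 against DMSO and 0.61 against samuraciclib on the log2 scale, and ATG16L2 rose by 0.64 against DMSO. ACY3 (1.58 with YKL-5-124, 1.30 with samuraciclib), MIR6753 (1.63 and 1.51) and ARAP1-AS2 (1.79 and 1.85) rose in both, all at means under 1.5 CPM, and the samuraciclib call of ARAP1-AS2 was lost without the libraries low in RN7SL2. A predicted transcript beyond SHANK2, chr11:71284091-71288157, rose with YKL-5-124 by 0.91 against DMSO and was 0.80 higher than with samuraciclib.

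Several other flank calls were lost when single libraries were left out. The antisense gene AP002490.1 was called with YKL-5-124 (1.25) and samuraciclib (1.23), and both calls were lost without DMSO 2, without DMSO 3, without YKL-5-124 1, without YKL-5-124 2 and without the libraries low in RN7SL2. The samuraciclib call was also lost without samuraciclib 1 or samuraciclib 2. AP002807.1 (0.54, YKL-5-124 against DMSO) was not called without DMSO 1, DMSO 2 or YKL-5-124 3. FAM86C2P fell with samuraciclib (-0.54, not called without samuraciclib 1), whereas its difference between the inhibitors, 0.96 higher with YKL-5-124, was called with each library left out. FAM86C1 (-0.50) lost its samuraciclib call without DMSO 2 or samuraciclib 3. AP002761.4 (-0.56) lost its own without DMSO 3, samuraciclib 1 or samuraciclib 3. LINC01537 (0.78 higher with YKL-5-124 than with samuraciclib) lost its call without samuraciclib 3 or YKL-5-124 3.

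**Figure D4:**
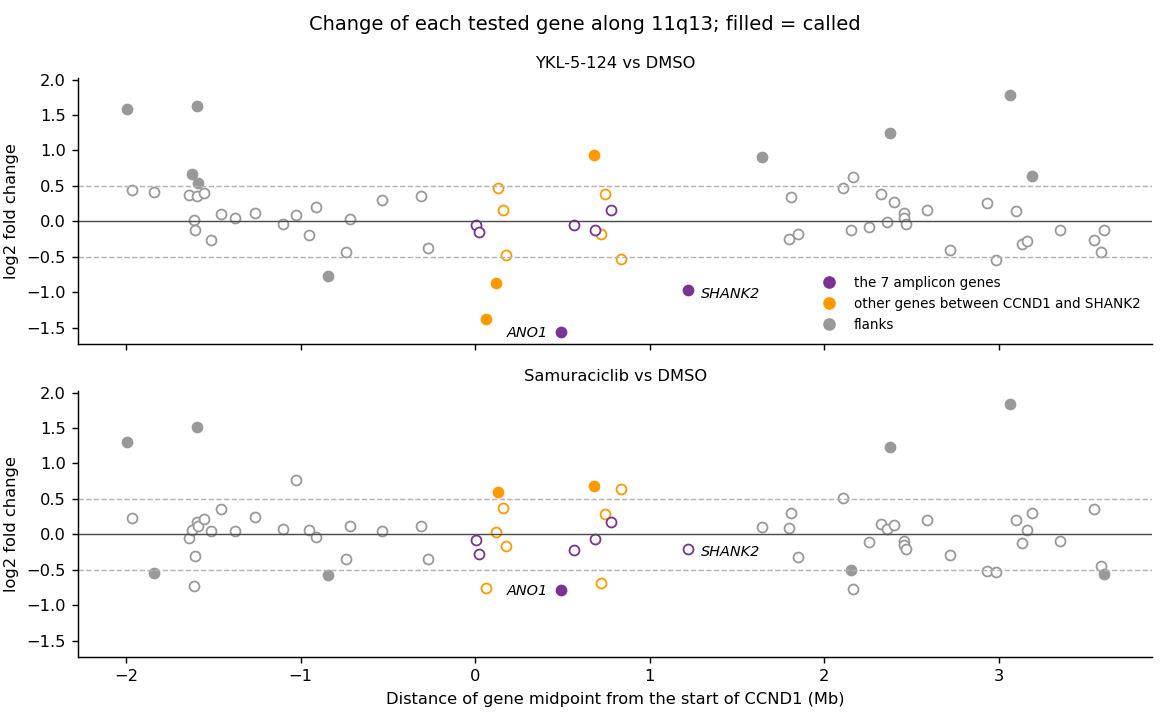
log2 fold change of each tested gene against the distance of its midpoint from the start of CCND1 in Mb, for YKL-5-124 (upper panel) and samuraciclib (lower panel) against DMSO; filled points were called and dashed lines mark 0.5. With YKL-5-124 the called genes between CCND1 and SHANK2 are ANO1 and SHANK2 in purple and 3 others in orange, with uncalled genes between them.

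The partners of each member came from lists of genes with related functions, and they are read against all tested genes, of which 21.8% were called with YKL-5-124 (median 0.01), 17.7% with samuraciclib (median 0.00) and 6.92% between the inhibitors. Of 21 tested genes around cyclin D1 (partners, inhibitors and turnover), 4 rose and 4 fell with YKL-5-124 (median -0.02) and 3 rose and 4 fell with samuraciclib (median 0.03). CDKN1A, the CDK inhibitor p21, rose by a log2 fold change of 0.62 with YKL-5-124 and 0.61 with samuraciclib. RBL1, the pocket protein p107, fell in both comparisons (-0.72 and -0.82), as did the transcription factor E2F1 (-0.57 and -0.78). CDK6, a partner of cyclin D1, fell with YKL-5-124 (-0.53), a call lost without DMSO 3 or YKL-5-124 3, and had -0.27 with samuraciclib. CDK4, the other partner, had -0.27 and -0.15 and was not called, and RB1 had -0.16 and 0.01. CCND2, the paralog of CCND1, rose with samuraciclib (0.85) and was -0.54 with YKL-5-124 relative to samuraciclib. That was the single gene of this list called between the inhibitors.

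Around FADD 14 genes of death receptor signalling were tested. With YKL-5-124 only TNFRSF25, a death receptor, was called, and it fell (-0.70, median of the list 0.06). With samuraciclib only the ligand TNFSF10 was called (-0.57, median of the list 0.10), and the call was lost in 10 of 20 alternative settings, among them the omission of any of the samuraciclib libraries, of DMSO 1, of DMSO 2 or of YKL-5-124 1. CASP8, the protease recruited by FADD, had 0.19 and 0.11, and its regulator CFLAR 0.13 and -0.05, none of them called. FAS, another death receptor, was the single gene called between the inhibitors, lower with YKL-5-124 (-0.55).

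Around cortactin 24 genes were tested, of which 1 rose and 2 fell with YKL-5-124 (median 0.05; 21.8% of all genes called) and 1 rose and 1 fell with samuraciclib (median 0.15; 17.7% of all genes), and none was called between the inhibitors. ARPC5, a subunit of the ARP2/3 complex, rose by 0.62 and 0.54, and HDAC6, the deacetylase of cortactin, fell (-0.57 and -0.75). WIPF3 fell with YKL-5-124 (-1.30), a call lost without the libraries low in RN7SL2. The core subunits ACTR2 (0.00 and 0.12) and ACTR3 (0.25 and 0.34) were not called.

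Of 19 tested liprin and SHANK partners, PPFIBP2, a liprin of the beta class, was called with YKL-5-124 (0.51) and lost its call in 10 of 20 settings, including the omission of DMSO 1, DMSO 3, YKL-5-124 1 or YKL-5-124 2 and the fit with the replicate number as a block. None was called with samuraciclib, and the medians of the list were 0.09 and 0.08. PTPRF, the receptor phosphatase that binds liprin-alpha, had -0.41 and -0.23. SHANK3 was lower with YKL-5-124 than with samuraciclib (-0.52), not called without samuraciclib 3, YKL-5-124 2 or YKL-5-124 3. Of 8 tested genes of the anoctamin list, ANO10 rose with samuraciclib (0.55), a call lost without DMSO 1, and none was called with YKL-5-124 or between the inhibitors. The medians of this list were 0.10 and 0.16. Among 10 ORAOV1 partners ABCE1 fell with YKL-5-124 (-0.55) and NUBP1 with samuraciclib (-0.55), the latter lost without samuraciclib 2 and without the libraries low in RN7SL2. YAE1, the direct partner of ORAOV1, had -0.13 and -0.17 and was not called, the medians of the list were -0.15 and -0.23, and none was called between the inhibitors. Between the inhibitors the list medians ran from -0.09 to 0.09, against 0.01 over all genes.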

How the data were processed

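Poly(A)-selected RNA from 9 FaDu cultures (3 per group) was sequenced with paired ends and, per the labels, aligned with HISAT2 to GRCh38 and assigned to genes with featureCounts 2.0.6. The authors deposited raw counts per gene, not normalized, with 194 predicted transcripts among 58929 genes. No column belonged to an unlisted sample.

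From these counts, 16065 genes passed filterByExpr. They were fitted in edgeR 4.0.16 (R 4.3.3) in 1 model of 3 groups with TMM factors and tested with the two-sided quasi-likelihood F-test, with Benjamini-Hochberg adjustment over all genes. The call thresholds, adjusted p under 0.05 and log2 fold change beyond 0.5, are those of the study's volcano plots. The study used DESeq2 and left ribosomal genes out of these plots, so its test and gene set differ from those used here. CPM used TMM library sizes, and levels between genes were divided by the gene length in the table. Standard errors and intervals came from the F statistic. With 3 cultures per group, p-values set each group difference against the spread between cultures, pooled over the 3 groups and moderated across genes. No 2 libraries of a group were duplicates.

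The members and lists were chosen with earlier results of these data known. Named were all members, every tested gene of the interval, called genes within 2 Mb on either side, up to 4 called genes per list and comparison with the smallest adjusted p, 10 list genes whatever their values, and the 2 genes most like each member. The fit was tested on simulated data. Over the 3 comparisons it recovered 55.3 to 62.2% of 1.5-fold changes, 82.4 to 89.1% of 2-fold changes and 97.9 to 100% of 4-fold changes. A gene that was not called can thus still have a change near the threshold. Alternatives were other scaling, filters, thresholds, DESeq2 1.42.0, glmTreat, a replicate block and omission of libraries.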

Additional observations from a re-analysis of the deposited data

How the results depend on the processing

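Over 20 alternatives per result, ANO1 and SHANK2 kept their direction, and the calls of members stayed at 2 (YKL-5-124 against DMSO), 1 (samuraciclib against DMSO) and 2 (between the inhibitors) except with no fold threshold, where they were 5, 5 and 2. With no fold threshold CTTN (0.16), PPFIA1 (-0.12) and LTO1 (-0.15) also passed with YKL-5-124, and CTTN (0.17), LTO1 (-0.27), FADD (-0.22) and SHANK2 (-0.21) with samuraciclib. The log2 fold change of ANO1 ran from -1.60 to -1.43 with YKL-5-124, from -0.82 to -0.72 with samuraciclib and from -0.83 to -0.71 between the inhibitors, and that of SHANK2 from -1.002 to -0.85, -0.23 to -0.15 and -0.80 to -0.70.

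Scaling by library size alone moved the median of all genes to 0.14 with YKL-5-124, 0.06 with samuraciclib and 0.08 between the inhibitors. It turned the sign of 3 members with YKL-5-124, PPFIA1 (0.0079), CCND1 (0.077) and FADD (0.079), and of CTTN (0.056) and PPFIA1 (0.015) between the inhibitors. It also removed the list calls of E2F1, CDK6, HDAC6 and ABCE1 with YKL-5-124, of NUBP1 and TNFSF10 with samuraciclib and of CCND2, FAS and SHANK3 between the inhibitors. Under it the genes higher and lower were 2802 and 1052 with YKL-5-124, against 1911 and 1595, and 1622 and 1219 with samuraciclib, against 1312 and 1535. CTTN between the inhibitors was 0.0038 with a mean count of at least 50. FADD with YKL-5-124 ranged from -0.13 to 0.0058 when 1 library was left out, the latter without YKL-5-124 2, with samuraciclib from -0.32 to -0.11 and between the inhibitors from 0.058 to 0.27.

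All genes called were 7919, 7087 and 4003 with no fold threshold and 1458, 982 and 71 with glmTreat, against 3506, 2847 and 1112, and 696 between the inhibitors at adjusted p under 0.01. Genes of the interval and flanks called were 31, 23 and 18 with no fold threshold and 4, 2 and 1 with glmTreat, against 12, 10 and 6, and 5 with samuraciclib at a mean count of at least 50. Fewer low-count genes are tested at that filter. Leaving out 1 library at a time gave 3292 to 3617, 2662 to 2887 and 907 to 1093 calls over all genes. Deviations of same-numbered libraries from their group means correlated at -0.056 to 0.173, and those of libraries with unlike numbers at -0.119 to 0.148. Whether same-numbered libraries were handled together was not tested. The replicate block gave 3494, 2825 and 1101 calls over all genes and 2, 1 and 2 members. DMSO 3, samuraciclib 2 and YKL-5-124 2, the libraries low in RN7SL2, correlated with each other at 0.146 to 0.173.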
